A study of Rattus norvegicus with 20 samples.

Results

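The subject here is the change in hippocampal RNA that Gunn rat pups of both genotypes shared after phototherapy. The members were taken from the sample labels: the 10 libraries of light-treated pups were set against the 10 libraries of untreated pups, with genotype as the second term of an additive model. All 20 of the 20 libraries of the series entered, and 1581 of the 15272 genes tested (10.4%) differed between treated and untreated pups.

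The Gunn rat carries a defect of the enzyme that conjugates bilirubin, so homozygous pups (jj) are jaundiced while heterozygous pups (Nj) are not; both genotypes carry the Gunn allele. Phototherapy is the standard care of the jaundiced newborn: light converts bilirubin in the skin into forms that are excreted without conjugation. The hippocampus is still being built in the days after birth in the rat, when granule cells of the dentate gyrus are born, axons and dendrites grow and synapses form.

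PolyA RNA of a hippocampal lobe was sequenced from pups at postnatal day 6, with 5 libraries in each of 4 groups, the combinations of genotype (Nj or jj) and light (untreated or treated). Treated pups received LED light for 12 hours in all between day 4 and day 6, in cycles of 3 hours on and 3 hours off by day. Untreated pups received no phototherapy. The hour of killing, the litters and the handling of untreated pups are not given in the sources used here. Every treated library has the title prefix J18, whereas untreated Nj libraries have J13, J14 or J15 and untreated jj libraries J17. What the prefix stands for is not stated, so light and whatever the prefix marks cannot be told apart in any comparison below. The p-values measure the spread between these libraries, which the labels do not tie to separate litters.

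Libraries held 16882652 to 27112749 counted reads, and no 2 were identical. Values are CPM, the counts of a gene scaled to a common library size with TMM factors, log2 fold changes are treated over untreated with their standard error (SE), and a gene is called where the Benjamini-Hochberg adjusted p of edgeR's quasi-likelihood test was under 0.05. The 9 markers of hippocampus and neurons summed to between 3842 and 4425 CPM in untreated and between 3891 and 4352 CPM in treated libraries, and none of them was at 0 in any library. Neighbouring tissue varied more. The 8 choroid plexus markers summed to 19.2 to 10204 CPM in untreated libraries (median 131) and to 32.5 to 8157 CPM in treated ones (median 2203), and Ttr, the thyroid hormone carrier made by that epithelium, was above 1000 CPM in 5 treated and 2 untreated libraries. The 8 meninges markers summed to 200 to 502 CPM in untreated (median 365) and 177 to 395 CPM in treated libraries (median 238), with Ogn at 0 in 18 libraries; of the choroid plexus markers Otx2 was at 0 in 19. Sums for ependyma, red blood cells and neighbouring thalamus and cerebellum overlapped over most of their range. Kdm5d, a Y-linked gene, was above 10 CPM in 3 treated and 4 untreated libraries. Because the choroid plexus and meninges sums moved with treatment, the count of all shared light genes and the counts of list members below are also given without the 7 libraries rich in Ttr and with the log2 meninges sum as a further term. The part of these tissues in the results was otherwise not tested. The 7 libraries were untreated Nj 3, untreated jj 3, treated Nj 2 and 5, and treated jj 2, 4 and 5. The fit without them therefore also has smaller groups, treated jj most of all.

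**Figure D1:**
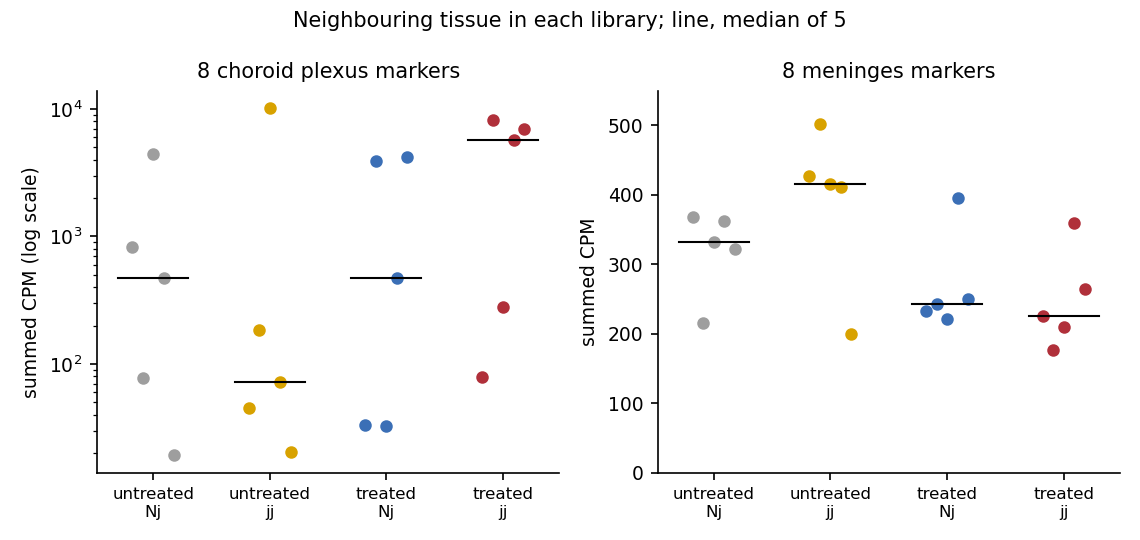
Summed CPM of 8 choroid plexus markers (left, log axis) and 8 meninges markers (right, linear axis from 0) in each library, by group; each point is a library and each line the median of 5. Choroid plexus RNA spans 19.2 to 10204 CPM with high libraries in every group, and the meninges sum has a median of 365 CPM in untreated and 238 CPM in treated libraries.

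With both genotypes together, called members of lists of immature neurons, axon guidance, DNA replication and neural progenitors were all lower in light-treated pups, and called members of lists of calcium-binding proteins and of the respiratory chain were all higher. Voltage-gated channels and presynaptic genes had members called in both directions, more of them higher. In most lists a large share of the members was not called, and with the meninges term the respiratory chain list kept 2 and the presynaptic list 1 called member. Of the 1581 called genes, 687 were higher in treated pups (4.5% of genes tested) and 894 were lower (5.85%). The changes were small: the median absolute log2 fold change of the called genes was 0.18, with a median SE of 0.04. Only 194 called genes changed by more than 1.25-fold, 117 of them higher and 77 lower, and 38 changed by more than 1.5-fold (29 higher, 9 lower). A change beyond 2-fold was reached by 4 genes. The log2 fold change over all tested genes had a median of 0.00. In bulk tissue, fewer cells of a type and less RNA per cell cannot be told apart, which holds for each gene group below.

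Without the 7 Ttr-rich libraries, 638 genes were called (333 higher, 305 lower), of which 542 were among the 1581. With the meninges term 802 were called (313 higher, 489 lower), of which 703 were among the 1581. In both fits all 1581 genes kept the sign of their fold change, which their choice from these same libraries largely fixes.

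The other term of the model, genotype adjusted for light, called no gene by edgeR or by DESeq2. In edgeR 1776 of the 15272 tested genes had an unadjusted p under 0.05, and the lowest adjusted p was 0.381. The genotype-by-light interaction, which asks whether light acted differently in jj than in Nj pups, also called no gene by either tool; 521 genes had an unadjusted p under 0.05 in edgeR. Among the genes with the lowest interaction p were Tsnaxip1, Myh6, Anp32a and Coa6. Anp32a had a log2 fold change of -0.51 in Nj and 0.18 in jj pups, which did not pass the adjusted test. A missed threshold does not show that the genotypes were alike or that they responded alike.

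More genes were called in Nj than in jj pups, although the interaction test singled out no gene. In a model with a mean per group, light called 611 genes in Nj pups (4% of those tested), with 228 higher (1.49%) and 383 lower (2.51%), and 25 genes in jj pups (0.164%), with 6 higher (0.0393%) and 19 lower (0.124%). Neither count was stable: leaving out a library gave 152 (untreated Nj 4) to 1070 (untreated jj 3) genes in Nj and 0 (untreated jj 4, among others) to 75 (untreated Nj 2) in jj pups, and without the Ttr-rich libraries they were 112 and 0. Of the treated jj libraries, the fit without the Ttr-rich libraries kept only jj 1 and jj 3. The part of the smaller groups in these counts was not tested. Among the 1581 genes called with both genotypes together were 546 of the 611 (89.4%) and 25 of the 25 (100%), and 1028 of the 1581 were called in neither genotype by itself. The median absolute log2 fold change of the 1581 genes was 0.20 in Nj and 0.16 in jj pups, and 1109 of them (70.1%) had the larger value in Nj, against 54.4% of all tested genes. The sign was the same in both genotypes for all 1581, which the choice of genes largely fixes, and for 69.9% of all tested genes.

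The genotypes were also fitted separately, on 10 libraries each, so that the contrasts share no library. In Nj pups 820 genes were called (5.49%), with 337 higher (2.26%) and 483 lower (3.23%). Of these 820 genes, 785 (95.7%) had the same sign in jj pups, against 70.2% of all genes. An unadjusted p under 0.05 with the same sign was found in jj pups for 388 of the 820 (47.3%), against 11.1% of all genes with an unadjusted p under 0.05 in jj pups. The median log2 fold change of the genes that rose in Nj pups was 0.24 there and 0.16 in jj pups, and that of the genes that fell was -0.23 and -0.12. Because the genes were chosen by their calls in Nj pups, which favours larger values there, these medians do not compare the size of the response. In jj pups fitted separately 3 genes were called (0.0201%), with 1 higher (0.00671%) and 2 lower (0.0134%), all of them also called in Nj pups. Both contrasts carry the same confounding with the title prefix.

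**Figure D2:**
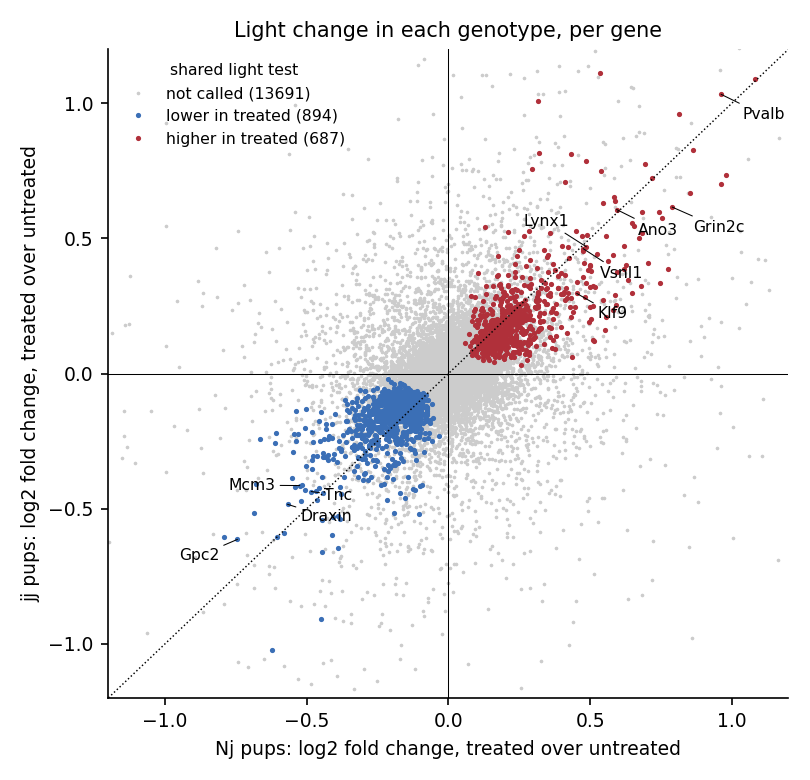
Log2 fold change of light in Nj pups (x axis) and jj pups (y axis) for each tested gene, in the model with a mean per group; genes called in the shared test are blue (894 lower in treated) or red (687 higher), the other 13691 are grey, 87 genes lie beyond the axes, and the dotted line marks equal change. The called genes lie in the lower left and upper right, closer to the x axis than to the y axis on the whole, and Gpc2, Draxin, Tnc and Mcm3 lie near the dotted line.

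For 73 genes (0.478% of those tested) the CPM of the 10 treated libraries did not overlap that of the 10 untreated libraries, with 28 treated above (0.183%) and 45 treated below (0.295%). All 73 were called. The 10 largest falls and the 10 largest rises among them open the account of named genes, and each kept its call in every alternative fit, the fits without the Ttr-rich libraries and with the meninges term included.

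The 10 largest falls were of Gpc2, Draxin, Mcm3, Tnc, Reln, Sema4c, Plin2, Dnmt1, Ttc28 and Dll1. Gpc2, a glypican that carries heparan sulfate on growing axons, had 31.2 to 50.8 CPM in untreated libraries (median 38.0) and 20.3 to 28.3 CPM in treated ones (median 24.9), a log2 fold change of -0.68 (SE 0.08, adjusted p = 2.58e-05). Draxin, a secreted axon repellent, had 44.1 to 60.6 CPM (median 53.2) in untreated and 31.9 to 42.8 CPM (median 35.9) in treated libraries, a log2 fold change of -0.53 (SE 0.06, adjusted p = 1.53e-05). Tnc, the matrix glycoprotein tenascin-C, had 441 to 528 CPM (median 472) in untreated and 313 to 422 CPM (median 333) in treated libraries, a log2 fold change of -0.46 (SE 0.05, adjusted p = 1.53e-05). All 3 were lower in every treated library than in any untreated one, and the Nj and jj log2 fold changes were -0.74 and -0.61 for Gpc2, -0.57 and -0.48 for Draxin, -0.48 and -0.44 for Tnc.

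Reln, the signal secreted by Cajal-Retzius cells and interneurons that positions migrating neurons, had 556 to 732 CPM (median 648) in untreated and 469 to 540 CPM (median 500) in treated libraries, a log2 fold change of -0.36 (SE 0.05, adjusted p = 5.26e-05). Mcm3, a subunit of the helicase that opens replication origins, had 9.96 to 12.8 CPM (median 12.3) in untreated and 7.14 to 9.36 CPM (median 8.67) in treated libraries, a log2 fold change of -0.47 (SE 0.06, adjusted p = 5.26e-05). Dnmt1, which copies DNA methylation onto newly made strands, had 97.8 to 113 CPM (median 101) in untreated and 76.3 to 92.3 CPM (median 82.3) in treated libraries, a log2 fold change of -0.29 (SE 0.04, adjusted p = 9.26e-05). The treated libraries lay below the untreated ones for these 3 genes as well. The other falls in this set were Sema4c, a membrane semaphorin, at -0.33, Plin2, a lipid droplet coat protein, at -0.29, Ttc28 at -0.29 and Dll1, a Notch ligand of neural progenitors, at -0.29. By p-value, Sf3b3, a subunit of the spliceosome (log2 fold change -0.25), and Cachd1, a modulator of calcium channels (-0.26), also ranked among the 5 strongest falls, with ranges of 119 to 137 against 100 to 112 CPM for Sf3b3 and of 80.4 to 88.8 against 65.3 to 74.6 CPM for Cachd1.

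The 10 largest rises were of Ano3, Lynx1, Vsnl1, Klf9, Pfkp, Scg5, Rassf5, Zfp365, Cap2 and Tuba4a. Ano3, of the anoctamin family of membrane proteins, had 12.1 to 21.6 CPM (median 16.4) in untreated and 22.8 to 28.6 CPM (median 25.3) in treated libraries, a log2 fold change of 0.60 (SE 0.08, adjusted p = 0.000137). Lynx1, a membrane-anchored brake on nicotinic acetylcholine receptors, had 92.3 to 135 CPM (median 112) in untreated and 138 to 169 CPM (median 156) in treated libraries, a log2 fold change of 0.48 (SE 0.05, adjusted p = 1.53e-05). Vsnl1, a neuronal calcium sensor, had 131 to 205 CPM (median 183) in untreated and 221 to 307 CPM (median 252) in treated libraries, a log2 fold change of 0.47 (SE 0.07, adjusted p = 0.00064). Every treated library was above every untreated one for these 3, and the Nj and jj changes were 0.59 and 0.61 for Ano3, 0.49 and 0.47 for Lynx1, and 0.48 and 0.46 for Vsnl1.

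Klf9, a zinc-finger transcription factor induced by thyroid hormone and glucocorticoids, had 36.1 to 45.7 CPM (median 41.9) in untreated and 48.5 to 58.4 CPM (median 54.7) in treated libraries, a log2 fold change of 0.37 (SE 0.05, adjusted p = 7.67e-05). Pfkp, the platelet-type phosphofructokinase of glycolysis, had 142 to 195 CPM (median 172) in untreated and 208 to 241 CPM (median 218) in treated libraries, a log2 fold change of 0.37 (SE 0.05, adjusted p = 6.65e-05). Neither gene's groups overlapped, and Klf9 rose by 0.45 in Nj and 0.30 in jj pups. Scg5, a chaperone of the secretory pathway, rose by 0.35 on the log2 scale, Rassf5, a Ras effector, by 0.35, Zfp365 by 0.34, Cap2, an actin regulator, by 0.34 and Tuba4a, an alpha tubulin, by 0.31. Mical2, an actin oxidase, and Ttll7, a tubulin polyglutamylase, rose by 0.30 each and ranked among the 5 strongest rises by p-value.

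**Figure D3:**
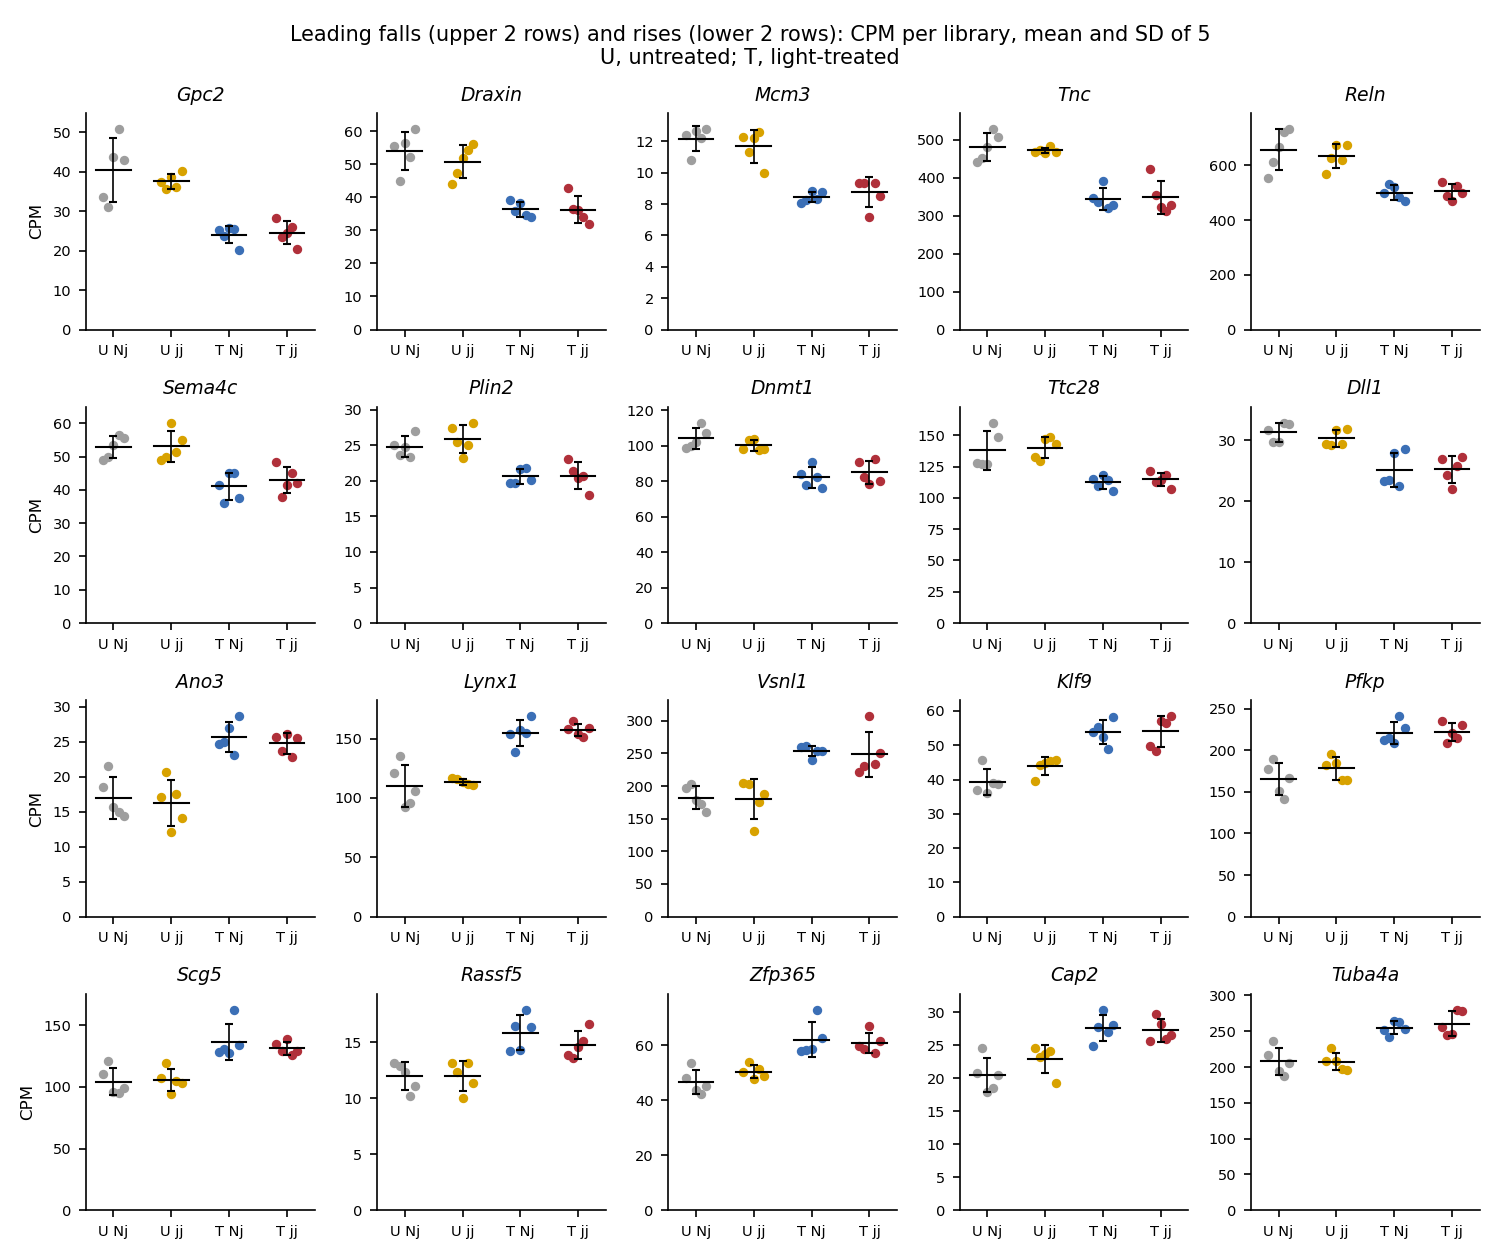
CPM in each library (points) with the mean and SD of 5 libraries per group (lines and bars), for the 10 largest falls (upper 2 rows) and 10 largest rises (lower 2 rows) among genes whose treated and untreated ranges do not overlap; each panel has its own linear CPM axis from 0. In each panel both untreated groups lie on the same side of both treated groups, as for Mcm3, at 9.96 to 12.8 CPM in untreated and 7.14 to 9.36 CPM in treated libraries.

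The rest of the account follows 37 gene lists, 1134 of whose genes were tested and 248 called. Each count of members called is to be read against the 4.5% of tested genes called higher and the 5.85% called lower, and each list median against 0.00 over all tested genes. The members of a list are not independent of each other.

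Most genes of the immature neuron list were lower in treated pups, with a negative log2 fold change for 22 and a positive one for 8 members. Of 30 tested members, 16 were called lower, none was called higher and 14 were not called. The list median was -0.18 (-0.19 in Nj, -0.15 in jj pups). Sox11, a transcription factor of newborn neurons, had 41.6 to 64.4 CPM (median 57.6) in untreated and 36.9 to 49.2 CPM (median 41.0) in treated libraries, a log2 fold change of -0.40 (SE 0.07, adjusted p = 0.00075). Crmp1, a relay of semaphorin signals to the cytoskeleton, had 1744 to 2005 CPM (median 1849) in untreated and 1443 to 1744 CPM (median 1601) in treated libraries, a log2 fold change of -0.22 (SE 0.03, adjusted p = 0.0004). The ranges of Sox11 overlapped and those of Crmp1 met at their ends. Tubb2b, a beta tubulin of migrating neurons, fell by 0.25 on the log2 scale, and Dcx, the microtubule protein doublecortin, by 0.28. Tubulin genes are near-identical in sequence, so the reads of Tubb2b may be shared with its relatives. Dcx had 917 to 1580 CPM in untreated and 938 to 1290 CPM in treated libraries, so its ranges overlapped almost wholly. The other called members were Draxin, Robo1, Dpysl5, Tubb3, Neurod2, Dbn1, Tuba1a, Cd24, Dpysl3, Ncam1, Elavl3 and Nnat. The count was 9 without the Ttr-rich libraries, where Sox11 had an adjusted p of 0.0853 and Dcx of 0.0729, and 16 with the meninges term. Dcx also lost its call in 4 fits that left out a library.

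Axon guidance and adhesion genes, the ligands and receptors by which axons find their targets, showed 18 of 42 members lower and none higher, with a median of -0.12. Among the receptors, Nrp2, a neuropilin, had 274 to 341 CPM (median 313) in untreated and 225 to 288 CPM (median 254) in treated libraries, a log2 fold change of -0.31 (SE 0.04, adjusted p = 0.000277). Robo1, a receptor of Slit proteins, had 162 to 184 CPM (median 171) in untreated and 133 to 161 CPM (median 148) in treated libraries, with no overlap, and a log2 fold change of -0.22. Cntn2, an axonal adhesion protein, changed by -0.32 (138 to 168 against 102 to 144 CPM). Further called receptors and their log2 fold changes were the netrin receptor Dcc at -0.27, the neuropilin Nrp1 at -0.23, the plexins Plxna2 (-0.19), Plxna3 (-0.17) and Plxna1 (-0.14), the netrin receptor Unc5b (-0.18) and the Eph receptor Ephb2 (-0.17). Among the ligands, the log2 fold change was -0.34 for Efnb1, -0.18 for Slit2 and -0.12 for Efnb3, and -0.20, -0.15 and -0.13 for the semaphorins Sema6c, Sema6a and Sema4g. Apart from Draxin and Robo1, the treated and untreated ranges of the list's called members overlapped. The list had 8 lower and 1 higher members without the Ttr-rich libraries, and 12 lower and 1 higher with the meninges term.

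Of 28 glypicans, syndecans and matrix genes of brain, 10 were lower and 2 higher, with a median of -0.13. Beside Gpc2, Tnc and Reln, the fallen members were Agrn, a heparan sulfate proteoglycan, at 640 to 745 CPM in untreated and 525 to 649 CPM in treated libraries (log2 fold change -0.23), the chondroitin sulfate proteoglycans Vcan (-0.27), Ncan (-0.19) and Bcan (-0.14), the hyaluronan synthase Has2 (-0.35), the syndecan Sdc1 (-0.32) and the basement membrane protein Nid1 (-0.20). The members that rose were Hapln1 (0.39) and Hapln4 (0.55), link proteins that tie proteoglycans to hyaluronan in the nets around neurons. A list of giant cadherins, fibrillins and teneurins, large adhesion and matrix proteins, had 13 of 23 members lower and none higher, with a median of -0.19. Its leading members were Adamts7, a matrix protease (log2 fold change -0.47, 17.4 to 22.7 against 13.2 to 17.7 CPM), Dchs1, a giant cadherin of planar polarity (-0.33, 159 to 211 against 124 to 163 CPM), Tenm2, a teneurin (-0.27, 417 to 537 against 334 to 428 CPM), and the low-abundance Emilin3 (-0.55, 2.27 to 3.52 against 1.43 to 2.63 CPM). This list was drawn up with such falls in these data already known. In the fit without the Ttr-rich libraries 6 matrix genes were lower and 1 higher, and 5 giant cadherins and their like were lower; with the meninges term the counts were 8 lower with 1 higher, and 6 lower.

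**Figure D4:**
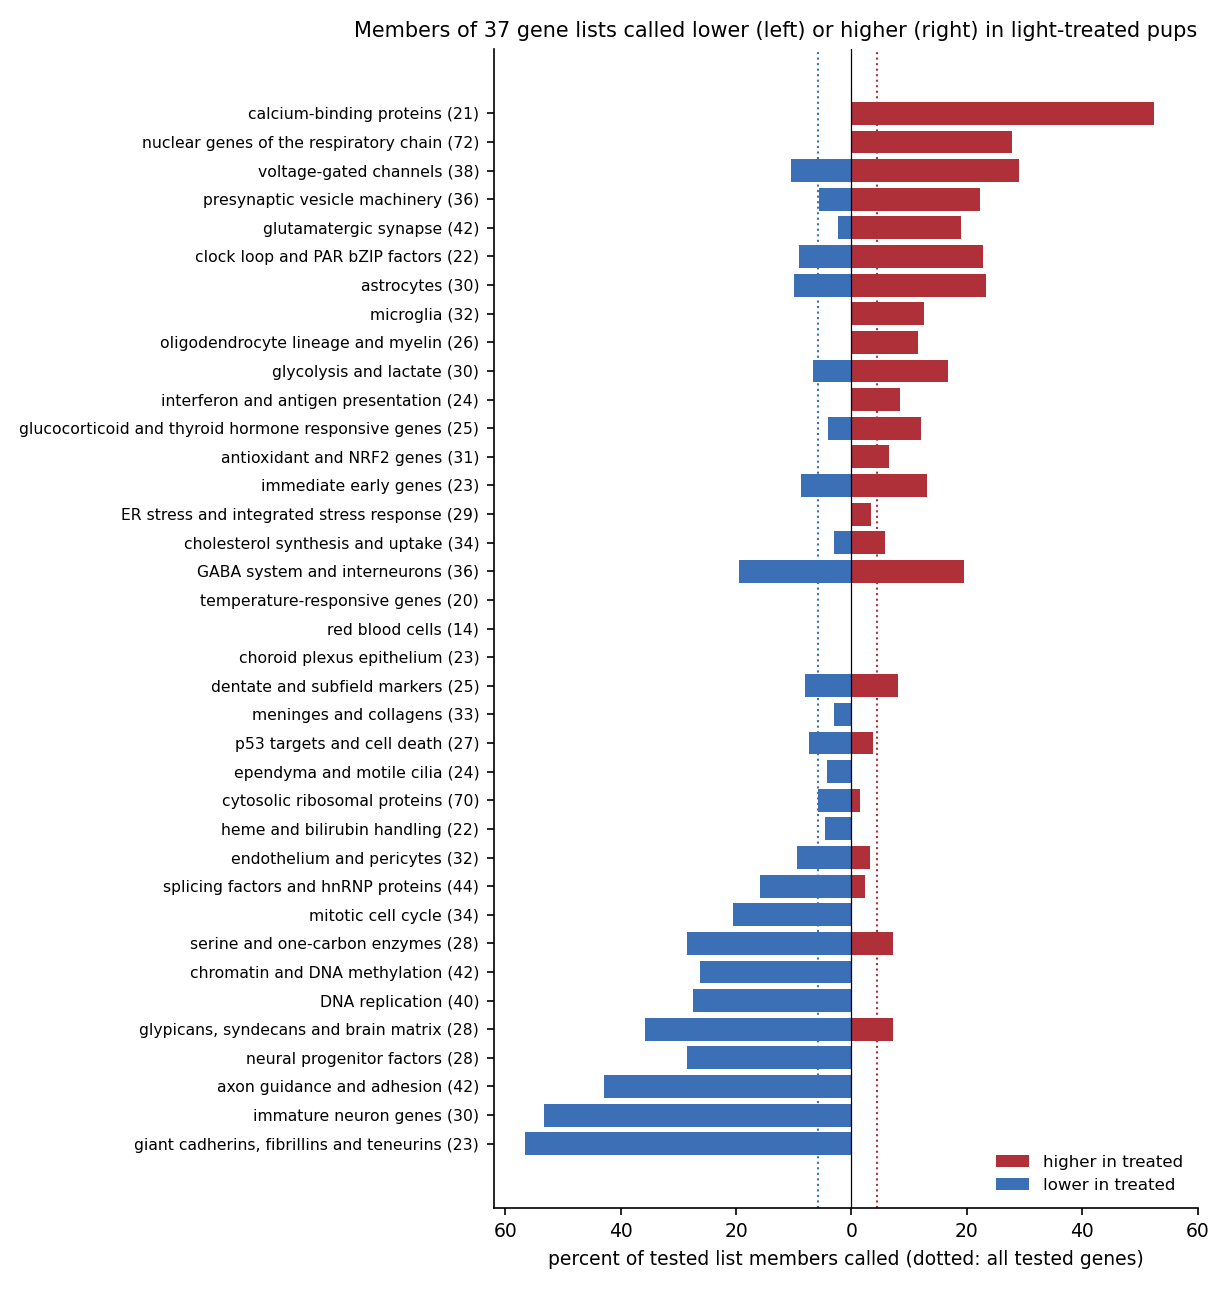
Percent of tested members called higher (red, to the right) or lower (blue, to the left) in treated pups for each of 37 gene lists, with the number of tested members in parentheses; dotted lines mark 4.5% higher and 5.85% lower over all 15272 tested genes. The bars of immature neuron genes (16 of 30 lower) and calcium-binding proteins (11 of 21 higher) point in opposite directions and pass the dotted lines, whereas red blood cell, choroid plexus and temperature-responsive genes have no bar.

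The called genes of DNA replication, mitosis and neural progenitors were all lower, while most members of these lists were not called. Of 40 DNA replication genes 11 were lower and none higher (median -0.11), of 34 mitotic genes 7 were lower and none higher (median -0.12), and of 28 neural progenitor genes 8 were lower and none higher (median -0.13). In the replication list, the helicase subunits Mcm2, Mcm3, Mcm6 and Mcm7 were called at -0.28, -0.47, -0.22 and -0.27, the DNA polymerase subunits Pola2, Pold1 and Pole at -0.34, -0.27 and -0.22, the ligase Lig1 at -0.24, the origin licensing factor Cdt1 at -0.35, and the ribonucleotide reductase subunits Rrm2 and Rrm1 at -0.42 and -0.11. Mcm2 had 18.6 to 22.2 CPM (median 20.8) in untreated and 13.7 to 19.5 CPM (median 16.5) in treated libraries, so the ranges overlapped near their ends. Mki67, the proliferation antigen Ki-67, had 32.1 to 42.5 CPM (median 38.4) in untreated and 27.5 to 34.7 CPM (median 30.5) in treated libraries, a log2 fold change of -0.27 (SE 0.05, adjusted p = 0.00173). Top2a, the topoisomerase of dividing cells, changed by -0.20, Tpx2, a spindle assembly factor, by -0.21 and Cdk4, a G1 kinase, by -0.15. Among progenitor genes, Nes, the intermediate filament nestin, had 7.64 to 11.4 CPM (median 8.69) in untreated and 5.64 to 7.80 CPM (median 6.65) in treated libraries, a log2 fold change of -0.42 (SE 0.07, adjusted p = 0.000968). The Notch receptors Notch3 and Notch1 changed by -0.23 and -0.18. In these 3 lists the treated libraries were lower on the whole but overlapped the untreated ones, except for Mcm3 and Dll1. The counts fell to 4 replication, 2 mitotic and 5 progenitor genes lower without the Ttr-rich libraries, and to 9, 4 and 5 with the meninges term. Leaving out untreated Nj 5 gave 7 called replication and 4 called mitotic genes.

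The promoters of the fallen replication genes were read from RefSeq (GRCr8), over 250 bases before and 50 after the annotated start, because E2F factors drive many genes of this set. A pair of E2F forms, TTTGGCGC and TTTCCCGC, was searched on both strands. At least 1 form was found in 5 of the 10 called members that have an entry (of 11 called), in 6 of the 24 uncalled members that have an entry, and in 1.45% of all 33469 promoters of the same length, so called and uncalled members both held it. The stretches around the matches are shown because these genes fell together; the match is in capitals, each sequence reads 5′ to 3′ on the strand of its gene, and the positions are those of the stretch in GRCr8.
Mcm3 (chr9:30733745-30733774, minus strand, match 6 bases before the start): tcctccaccataaacttccgtgGCGGGAAA
Mcm6 (chr13:42404444-42404531, minus strand, match 139 bases before the start): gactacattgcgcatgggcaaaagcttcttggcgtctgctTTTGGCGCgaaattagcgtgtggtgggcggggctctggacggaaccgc
Mcm7 (chr12:22163364-22163428, minus strand, match 233 bases before the start): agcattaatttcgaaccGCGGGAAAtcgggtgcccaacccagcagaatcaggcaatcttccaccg
Cdt1 (chr19:67529259-67529288, plus strand, match from base 33 after the start): cgaaatccgcgggaagtagcttTTTGGCGC
Pole (chr12:52053657-52053686, minus strand, match 2 bases before the start): tctcgcgagagcacatgagagcGCGCCAAA
In Mcm3, Mcm7 and Pole the match is on the strand opposite to the gene. The distances to the start are those of the first base of each match, and the matches of Mcm3 and Pole run across the start. A match is a run of letters and no measurement of binding.

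Chromatin genes followed the same direction, with 11 of 42 lower and none higher (median -0.05). Uhrf1, which recruits Dnmt1 to replicating DNA, had 10.0 to 14.9 CPM (median 13.0) in untreated and 8.30 to 11.8 CPM (median 9.73) in treated libraries, a log2 fold change of -0.42 (SE 0.07, adjusted p = 0.000711). The chromatin remodellers Smarca4 (-0.21), Chd8 (-0.18), Chd7 (-0.21), Chd4 (-0.17), Arid1a (-0.17), Arid1b (-0.15) and Smarcc1 (-0.13) and the histone-modifying enzymes Kmt2a (-0.20) and Kdm6b (-0.18) made up the rest beside Dnmt1. Treated and untreated ranges of Uhrf1 overlapped. The list had 7 lower members without the Ttr-rich libraries and 9 with the meninges term. Splicing factors and hnRNP proteins had 7 of 44 members lower and 1 higher: Srsf4, Hnrnpl and Nono changed by -0.14, -0.11 and -0.11, while Mbnl2, a splicing regulator of mature tissue, changed by 0.26. That count was 1 lower without the Ttr-rich libraries and 3 lower with 1 higher under the meninges term. Of 28 serine and one-carbon enzymes, 8 were lower and 2 higher; Phgdh, the entry enzyme of serine synthesis, had 124 to 149 CPM in untreated and 100 to 133 CPM in treated libraries (log2 fold change -0.21), Aldh1l2, a mitochondrial folate enzyme, changed by -0.36, and Mat2b, a regulator of methionine adenosyltransferase, by 0.24. That list had 3 lower and 1 higher members without the Ttr-rich libraries, and 4 and 1 with the meninges term. Without untreated Nj 5, 4 splicing and 6 serine and one-carbon genes were called.

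Calcium-binding proteins showed 11 of 21 members higher and none lower, with a median of 0.14 (0.20 in Nj, 0.13 in jj pups). Beside Vsnl1, Kcnip4, a calcium sensor that tunes potassium channels, had 13.4 to 22.5 CPM (median 21.2) in untreated and 22.5 to 31.5 CPM (median 26.7) in treated libraries, a log2 fold change of 0.39 (SE 0.07, adjusted p = 0.00111). Hpcal4, a hippocalcin relative, had 253 to 296 CPM (median 270) in untreated and 288 to 354 CPM (median 308) in treated libraries, a log2 fold change of 0.21. Pvalb, the calcium buffer of fast-spiking interneurons, was barely expressed at this age, at 0.33 to 1.00 CPM (median 0.70) in untreated and 1.00 to 1.68 CPM (median 1.41) in treated libraries, a log2 fold change of 1.00 (SE 0.18, adjusted p = 0.00111). Further rises were of Calb1, calbindin (0.32), Kcnip3 (0.26), S100b (0.23), Hpca, hippocalcin (0.19), and Ncald (0.17). The treated ranges of Kcnip4, Hpcal4 and Pvalb met or overlapped the untreated ones only at the lower end. The count was 7 higher without the Ttr-rich libraries and 6 with the meninges term.

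The list of voltage-gated channels, which also holds the inward rectifier Kcnj10, had 11 of 38 members higher and 4 lower (median 0.05). Among sodium channel subunits, Scn2b, Scn1a, Scn2a and Scn3b were higher by 0.21, 0.18, 0.12 and 0.11, and the potassium channels Kcnc2, Kcnc4, Kcnj10, Kcnq3, Kcnq5 and Kcna2 by 0.26, 0.25, 0.23, 0.16, 0.14 and 0.14. Scn2b had 22.2 to 28.0 CPM (median 25.1) in untreated and 26.4 to 30.1 CPM (median 29.3) in treated libraries, with overlapping ranges. Lower members were Scn4b (-0.45, at 2.24 to 5.46 CPM over all libraries), the pacemaker channel Hcn4 (-0.23) and the calcium channels Cacna1h (-0.17) and Cacna1c (-0.14). Without the Ttr-rich libraries 8 were higher and none lower, and with the meninges term 6 were higher and none lower.

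Genes of the GABA system and of interneurons moved in both directions: 7 of 36 were higher and 7 lower. The rises included Gad2, an enzyme that makes GABA (159 to 246 against 227 to 290 CPM, log2 fold change 0.27), the peptides Sst (0.23) and Vip (0.25), Pvalb, and the GABA-A receptor subunits Gabrd (0.50) and Gabra4 (0.26). The falls included the transcription factors Dlx2 (-0.31), Lhx6 (-0.27) and Maf (-0.18), which specify interneurons as they form, and Reln, the serotonin receptor Htr3a (-0.21) and Nos1 (-0.13). Sst had 100 to 133 CPM (median 116) in untreated and 119 to 152 CPM (median 136) in treated libraries. The counts were 6 higher and 2 lower without the Ttr-rich libraries, and 6 and 3 with the meninges term, and 7 genes in all were called without untreated Nj 4.

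Of 42 glutamatergic synapse genes, 8 were higher and 1 lower (median 0.04). Grin2c, an NMDA receptor subunit that appears late in development, had 9.85 to 21.3 CPM (median 14.4) in untreated and 18.5 to 30.7 CPM (median 24.7) in treated libraries, a log2 fold change of 0.70 (SE 0.11, adjusted p = 0.00075). Its ranges overlapped, with most treated libraries above the untreated ones. The only fall was of Grin2d, a subunit of early development, at -0.16. Slc17a7, the vesicular glutamate transporter, changed by 0.15, Camk2a, the postsynaptic kinase, by 0.17 and Dlg2, a scaffold of the postsynaptic density, by 0.15. Presynaptic vesicle genes had 8 of 36 members higher and 2 lower (median 0.05). Vamp1, a synaptobrevin, had 17.7 to 27.8 CPM (median 22.5) in untreated and 25.8 to 32.1 CPM (median 30.2) in treated libraries, a log2 fold change of 0.35 (SE 0.06, adjusted p = 0.000797), and Snap25, its SNARE partner, had 377 to 705 CPM (median 605) in untreated and 644 to 789 CPM (median 745) in treated libraries, a log2 fold change of 0.31. Both synaptic lists shrank with the meninges term, to 2 higher glutamatergic and 1 higher presynaptic gene, with no member lower in either; Slc17a7, Camk2a, Dlg2 and Snap25 then had adjusted p of 0.058, 0.075, 0.102 and 0.08. The counts without the Ttr-rich libraries were 8 and 5 higher and none lower, and leaving out untreated Nj 4 gave 5 called presynaptic genes.

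Nuclear genes of the respiratory chain showed many small changes in the same direction: 20 of 72 were higher and none lower, and 66 of 72 had a positive log2 fold change, with a median of 0.09 in all pups, 0.10 in Nj and 0.09 in jj pups. Sdhd, a membrane anchor of complex II, had 107 to 126 CPM (median 117) in untreated and 125 to 133 CPM (median 130) in treated libraries, a log2 fold change of 0.16 (SE 0.03, adjusted p = 0.00133). Atp5po, a stalk subunit of ATP synthase, changed by 0.13, Cox4i1, a subunit of cytochrome oxidase, by 0.13 and Ndufb9, a subunit of complex I, by 0.15. The count fell under both alternatives: 5 members were higher without the Ttr-rich libraries and 2 with the meninges term, where Atp5po had an adjusted p of 0.0563 and Ndufb9 of 0.0928. Among 30 genes of glycolysis and lactate, 5 were higher and 2 lower: Pfkp, Pgam1 (0.17, at 228 to 269 against 271 to 290 CPM), Ldha (0.11), Ldhb (0.10) and Pgk1 (0.08) rose, and Pfkl (-0.19) and Hk1 (-0.11) fell. Of these, 2 were higher and none lower both without the Ttr-rich libraries and with the meninges term.

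Glial genes were called in part. Of 30 astrocyte genes, 7 were higher and 3 lower (median 0.06). Slc1a2, the main glutamate transporter of astrocytes, had 102 to 128 CPM (median 111) in untreated and 120 to 155 CPM (median 143) in treated libraries, a log2 fold change of 0.33 (SE 0.05, adjusted p = 0.000141). Acsl6, an acyl-CoA synthetase, changed by 0.21, Ntsr2, a neurotensin receptor of astrocytes, by 0.58, Aqp4, the water channel of their endfeet, by 0.26, and Aldh1l1 by -0.25. Of 32 microglial genes, 4 were higher and none lower; P2ry12, the purine receptor of resting microglia, had 5.88 to 9.24 CPM (median 7.82) in untreated and 8.63 to 12.2 CPM (median 10.6) in treated libraries, a log2 fold change of 0.41 (SE 0.08, adjusted p = 0.00136), with 0.58 in Nj and 0.24 in jj pups. Gpr34, Lyz2 and Ctss changed by 0.42, 0.34 and 0.31. Of 26 oligodendrocyte genes, 3 were higher and none lower, Ugt8 (0.31) and Cntn1 (0.10) among them; Mbp, the myelin basic protein, had a log2 fold change of 0.26 (adjusted p = 0.123) and was not called. The ranges of Slc1a2 and P2ry12 overlapped near their ends. Without the Ttr-rich libraries 3 astrocyte genes were higher and 2 lower, 1 microglial gene and 1 oligodendrocyte gene were higher; with the meninges term the counts were 5 and 1, 4, and 0. The microglial count was 8 without treated Nj 3, and the oligodendrocyte count ran from 1 (without untreated Nj 4) to 6 (without untreated Nj 2). Cntn1 lost its call in 7 of the fits that left out a library.

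Among 22 genes of the circadian clock loop and its output factors, 5 were higher and 2 lower (median 0.10). Nr1d2, a repressor in the clock loop of the nuclear receptor family, had 35.1 to 47.1 CPM (median 43.3) in untreated and 45.5 to 57.2 CPM (median 53.1) in treated libraries, a log2 fold change of 0.32 (SE 0.05, adjusted p = 0.000771). Its relative Nr1d1 changed by 0.24 and the output factors Dbp and Tef by 0.26 and 0.14, Clock by 0.17, and the kinases Csnk1e and Csnk1d by -0.15 and -0.09. Per1 (-0.08, adjusted p = 0.435) and Per2 (0.03, adjusted p = 0.63) were not called. Since the hour of killing is not given, treatment and time of day cannot be told apart. Without the Ttr-rich libraries 3 members were higher and none lower, with adjusted p of 0.163 for Nr1d1 and 0.108 for Dbp; with the meninges term 5 were higher and 1 lower. Of the 6 called members with a RefSeq promoter, Tef holds the E-box CACGTG, as do 3 of the 12 uncalled members with an entry and 6.42% of all promoters. Nr1d2 holds AGGTCA, the core of the RORE, as do 1 of those 12 and 16.2% of all promoters. The Nr1d2 match is on the strand of the gene, whereas the E-box reads the same on both strands. The stretches around both matches are given to show them in context, with the match in capitals and GRCr8 positions.
Tef (chr7:115206589-115206674, plus strand, match 198 bases before the start): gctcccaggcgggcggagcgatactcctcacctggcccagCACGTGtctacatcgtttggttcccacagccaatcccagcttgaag
Nr1d2 (chr15:9954807-9954892, plus strand, match 187 bases before the start): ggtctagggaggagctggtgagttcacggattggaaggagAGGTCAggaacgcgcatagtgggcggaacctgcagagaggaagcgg

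Immediate early genes, which respond to neuronal activity, had 3 of 23 members higher and 2 lower. Egr1 had 17.3 to 31.7 CPM (median 23.2) in untreated and 25.5 to 42.8 CPM (median 28.7) in treated libraries, a log2 fold change of 0.34; Fosb, at 0.431 to 0.738 CPM in untreated and 0.717 to 1.85 CPM in treated libraries, changed by 0.85, and Egr4 by 0.33. Fosl2 (-0.35) and Nr4a3 (-0.23) fell. Fos, the best-known gene of this list, had 1.98 to 4.25 CPM in untreated and 3.38 to 7.15 CPM in treated libraries, a log2 fold change of 0.43 that was not called (adjusted p = 0.0544). Without the Ttr-rich libraries none was higher and 1 lower, and with the meninges term 2 were higher and 2 lower.

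Lists that bear on heat, hormones, stress and bilirubin had called shares of 0% to 16%, against 10.4% of all tested genes. None of 20 temperature-responsive genes was called: Cirbp and Rbm3, which respond to mild cold, had log2 fold changes of -0.09 (adjusted p = 0.0947) and 0.04 (adjusted p = 0.672). Of 22 genes of heme and bilirubin handling, Alad, an enzyme of heme synthesis, was lower (-0.18) and none was higher; Hmox1, the heme oxygenase that yields biliverdin, had 6.36 to 9.49 CPM in untreated and 5.82 to 7.80 CPM in treated libraries (log2 fold change -0.18, adjusted p = 0.147), and Blvrb, a biliverdin reductase, had -0.03. Of 25 glucocorticoid and thyroid hormone responsive genes (16% called), Klf9, Nrgn (0.18) and Glul (0.13) were higher and Klf11 (-0.16) was lower, while the list median was -0.06. Klf11 lost its call in 10 of the 20 fits that each left out a library and in both tissue fits, Glul without the Ttr-rich libraries (adjusted p = 0.118) and Nrgn with the meninges term (adjusted p = 0.0525), so that 2 and 3 members were called there. In the same list, Fkbp5, a glucocorticoid target, had -0.10 (adjusted p = 0.211). Called members numbered 1 of 29 for the integrated stress response, 2 of 31 for antioxidant genes (Sod2 at 0.19 and Sod1 at 0.12, neither of them called without the Ttr-rich libraries, with adjusted p of 0.0651 and 0.113), 3 of 27 for p53 targets and cell death, 2 of 24 for interferon and antigen presentation (B2m at 0.19, Ifit2 at 0.32) and 3 of 34 for cholesterol synthesis and uptake (2 higher, 1 lower). The fall in the cholesterol list was of Srebf2, a driver of that pathway, at -0.14, with -0.21 in Nj and -0.06 in jj pups. Srebf2 was not called with the meninges term (adjusted p = 0.108). Without the Ttr-rich libraries the called members of these lists numbered 1 (temperature), 0 (heme and bilirubin), 0 (stress response), 0 (antioxidant), 1 (p53), 1 (interferon) and 2 (cholesterol), and with the meninges term 0, 0, 1, 1, 1, 2 and 1.

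Dentate and subfield markers had 2 of 25 members higher (C1ql2 at 0.44, Calb1) and 2 lower (Fn1 at -0.46, Bhlhe22 at -0.15). Fn1, Bhlhe22 and Calb1 lost their calls in 15, 16 and 11 of the 20 fits that each left out a library. The list had 0 calls without the Ttr-rich libraries and 3 with the meninges term. With the meninges term Fn1 changed by -0.12 (adjusted p = 0.171). Of 32 genes of endothelium and pericytes, Rgs5 (0.19) was higher and Kdr (-0.29), Notch3 and Esam (-0.20) were lower. With the meninges term Kdr changed by -0.10 (adjusted p = 0.225), and Notch3 (0.105) and Esam (0.191) also had an adjusted p above the threshold; without the Ttr-rich libraries Kdr (0.193) and Esam (0.0758) did. Esam also lost its call in 5 fits that left out a library. Choroid plexus genes had no call among 23, although their median was 0.68; without the Ttr-rich libraries that median was -0.12. Meninges and collagen genes had 1 call among 33, with a median of -0.32, but that count was not stable. It was 10 without treated Nj 4, 9 lower with the Ttr term, 6 under DESeq2 and 0 without the Ttr-rich libraries. With the meninges term 3 were higher, but that term adjusts these genes for markers of their own tissue, so it does not bear on their stability. Red blood cell genes had none among 14. Of 70 cytosolic ribosomal protein genes, 4 were lower and 1 higher (2 lower without the Ttr-rich libraries, 5 lower with the meninges term, 1 called without untreated Nj 5); the higher gene, Rps6, is a multicopy gene whose reads cannot be placed with certainty.

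The median log2 CPM was 5.70 for the genes that rose and 6.03 for those that fell, against 4.53 over all tested genes. Small changes pass the test more readily in abundant genes, and the part of this in the difference was not tested. By RefSeq (GRCr8), the median genomic span was 35.8 kb for the fallen genes with an entry, 27.4 kb for the risen genes and 26.0 kb for all tested genes. With tested genes ranked by span into 4 equal sets, the share that fell was 4.31% in the shortest set, 6.27% and 6.07% in the middle sets and 8.51% in the longest. The share that rose was 4.46%, 4.66%, 4.32% and 5.54%, so it was also highest in the longest set. The median log2 fold change of the sets, from shortest to longest, was -0.0037, -0.0017, 0.0045 and 0.0036. The longest genes therefore did not fall as a set.

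Since title prefix follows treatment, the means per prefix were set side by side. The J18 mean lay outside the means of all 4 untreated prefixes for 1423 of the 1581 called genes (90%) and for 36.5% of all tested genes; J18 is the treated group, so this largely restates the call and says nothing apart from it about the prefix. Untreated prefixes differed among themselves too: for Gpc2 and Ano3 the only J14 library lay nearest to the treated ones. Restricting untreated Nj to the J15 libraries gave 1605 called genes.

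**Figure D5:**
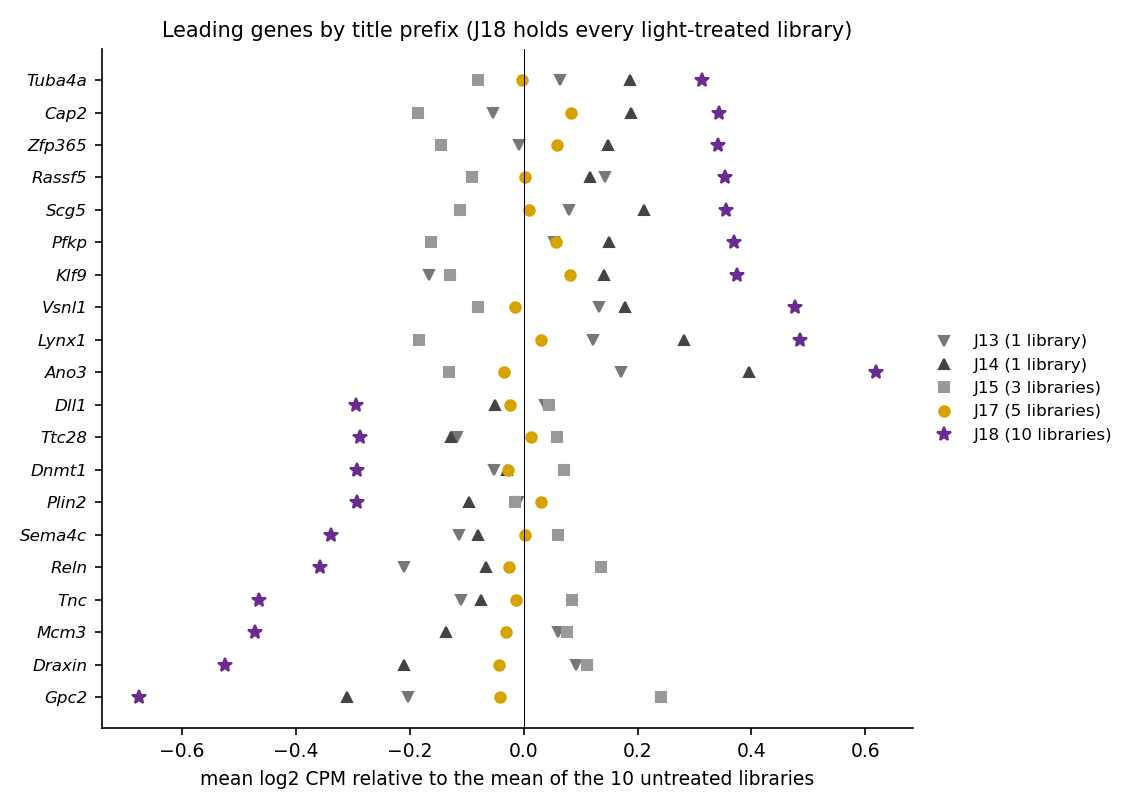
Mean log2 CPM per title prefix, relative to the mean of the 10 untreated libraries (x axis), for the 10 largest falls and 10 largest rises; symbols mark the prefixes with their number of libraries, and stars mark J18, which holds all light-treated pups. The star lies outside the 4 untreated prefixes in each of the 20 genes because they were chosen for ranges that do not overlap. For most of the 20 genes, Gpc2 and Ano3 among them, the J14 library lies nearest to the star.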

How the data were processed

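Hippocampal polyA RNA was sequenced from 20 Gunn rat pups. The deposited table holds the authors' raw read counts of 32883 genes with rat Ensembl identifiers, not normalized; per the submitters' processing notes, FastQC, TopHat2 2.0.13, Subread and edgeR were used. Those notes name a mouse build although the genes are those of rat; rat build, annotation and strand setting are not given in the sources used here. Genes of the table therefore carry no coordinates, and reads of overlapping or antisense genes may be shared.

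From these counts, 15272 genes passed filterByExpr by group, and 10054 of all listed genes were at 0 in every library. Counts were scaled by TMM and fitted with genotype and light as additive terms in edgeR 4.0.16 (limma 3.58.1, R 4.3.3; robust quasi-likelihood F-test, two-sided, legacy estimates). A model with a mean per group gave the contrasts within each genotype and the interaction. DESeq2 1.42.0 was the second tool. Alternatives covered scaling, filters, estimates, genotype, sex and tissue terms, and libraries left out; the meninges term was chosen after seeing the data. Totals of 16882652 to 27112749 counts limit the precision of genes of a few CPM.

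On simulated counts with 15186 genes, the additive test recovered 38% of genes changed 1.15-fold, 64% at 1.25-fold, 82% at 1.5-fold and 84% at 2-fold. It made 7 false calls among 141 calls. Counts were drawn gene by gene, so the simulation held no tissue variation shared between genes and no difference between title prefixes. Its rate of false calls therefore does not carry over to the real comparison.

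Named genes were the 10 largest rises and falls with ranges that do not overlap and an average log2 CPM of at least 1, the 5 lowest p in each direction, up to 4 called members of each list with 2 or more calls, a fixed set, and the 5 lowest interaction p. Further called list members are named to account for their list and were chosen after their values were seen. Some genes that these rules name are not reported here; counts include them. The comparison, the members and the lists were chosen with earlier results of these data known, so no list is independent support.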

Additional observations from a re-analysis of the deposited data

Results flagged for a closer look

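A single library stood apart from the other 4 of its group, by a gap over range test at the 95% level, in 11 of 180 checks over 45 genes (6.11%); chance flags about 5% of such groups. Ttr, the choroid plexus marker, was flagged in untreated Nj pup 3 at 4111 CPM, with the others at 3.57 to 762 CPM, and in untreated jj pup 3 at 9662 CPM, with the others at 6.73 to 159 CPM. Untreated Nj pup 2, the only library of prefix J14, was flagged for Slc1a2 (125 CPM against 102 to 106) and Grin2c (19.9 CPM against 9.85 to 11.9), in both towards the treated level. Untreated Nj pup 3 was low in Pvalb (0.33 CPM against 0.63 to 0.73), a gene near the limit of detection. Among untreated jj pups, Klf9 was low in pup 1 (39.6 CPM against 44.3 to 45.7), Cap2 low in pup 5 (19.2 CPM against 23.3 to 24.5) and Srebf2 high in pup 3 (267 CPM against 230 to 240). Among treated pups, Ttll7 was high in jj pup 3 (59.8 CPM against 53.9 to 55.0), Scg5 high in Nj pup 4 (163 CPM against 127 to 134) and Blvrb high in jj pup 2 (21.2 CPM against 19.8 to 20.1). Leaving out any of these libraries kept the calls of Ttll7, Klf9, Slc1a2, Scg5, Grin2c, Cap2, Pvalb and Srebf2.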

How the results depend on the processing

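The count of 1581 shared light genes stayed within 1.5 times under DESeq2 size factors (1591), genes of any count (1280), a minimum mean count of 10 (1652), newer estimates (1592), DESeq2 (2022), no genotype term (1507), an averaged contrast (1541), a Y-linked term (1473), a Ttr term (1744) and each left-out library (1074 to 1718). It moved to 638 without the Ttr-rich libraries (fewer samples) and to 802 with the meninges term; the cause was not tested. The Nj count of 611 became 1009 under DESeq2, 112 without the Ttr-rich libraries and 152 to 1070 on leaving out a library (152 without untreated Nj 4, 159 without untreated Nj 5, 253 without treated Nj 5, 272 without treated Nj 2, 1070 without untreated jj 3). The jj count of 25 became 271 under DESeq2, 0 without the Ttr-rich libraries, 72 with J15 alone, 3 on the 10 jj libraries alone and 0 to 75 on leaving out a library (0 without untreated jj 4 or treated jj 2, 3 or 5), so the count for jj pups is not stable. The interaction gave 0 to 1 calls on leaving out a library; the call, LOC103689971, appeared without treated jj 1. Of 125 called named genes, 68 kept their call in every setting. None reversed, which their choice from these same libraries largely fixes. Genes with no call changed sign: Per1 to 0.0223 and Rbm3 to -0.0261 (meninges term), Blvrb to 0.0184 and Coa6 to -0.0477 (without the Ttr-rich libraries). On leaving out a library Blvrb ranged from -0.0446 to 0.00875 and Coa6 from -0.0521 to 0.0599. Ttr went to -2.96e-05 with the Ttr term, which adjusts Ttr for its own level and so fixes this value near 0. No paired analysis was possible because replicate numbers were given in accession order only. Depth limits genes of about 1 CPM such as Pvalb and Fosb, and the title prefix cannot be told apart from light.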
